A study of Rattus norvegicus with 9 samples.

Results

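Dorsal root ganglia of rats with a spinal cord injury (SCI) were compared with ganglia of sham-operated rats at 30 days, in 3 libraries a group and 6 of the 9 libraries in all. Every gene that passed a low-count filter by group was a member of the comparison, 16627 of the 30446 genes counted. All animals were male Sprague-Dawley rats, and each library was made from the last thoracic and the lumbar ganglia of both sides. The sham group was operated on without cord injury, so that the contrast asks what the injury adds to the operation, and the 3 naive libraries carry the same label of 30 days. The labels used here do not describe the injury, the operation or the animal's age, and they do not say whether a library holds 1 animal or several. The p-values given here therefore measure the spread between libraries.

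Dorsal root ganglia hold the cell bodies of the sensory neurons that carry touch, body position, temperature and pain to the cord. Each neuron is wrapped by satellite glia, its axon by Schwann cells, and the ganglion also holds macrophages, vessels and a connective tissue capsule. A cut peripheral axon switches on a well known program in these neurons, with the transcription factors ATF3 and JUN, the peptides galanin and VIP, and growth-associated proteins. A cord injury acts on the central branch of these neurons, and pain below the injury is a common consequence of it.

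No gene was called between SCI and sham at an adjusted p under 0.05 by edgeR's quasi-likelihood test (0% of the genes tested, smallest adjusted p 0.442). At an unadjusted p under 0.05 in edgeR, 354 genes were higher in SCI (2.13% of those tested) and 172 were lower (1.03%). Together these were 3.16%, under the share of 0.05 that would pass if no gene differed. The 3 SCI libraries lay above all 3 sham libraries for 549 genes (3.30%) and below them for 517 genes (3.11%). With 3 libraries against 3, full separation arises at least as often where no gene differs, so it alone marks no difference. DESeq2 called 8 of 24329 genes (0.0329%), the muscle genes Acta1, Tnni2, Tnnt3, Tnnc2 and Myoz1 as lower and Vip, Fos and Wsb1 as higher. limma-voom called 0. The 95% interval of the log2 change lay between -1 and 1 for 91.4% of the genes tested, and its bounds lay at a median distance of 0.23 from the estimate. The intervals take their spread from all 9 libraries. The naive libraries varied less than sham, so the intervals may be too narrow for the 2 groups compared.

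The sham libraries varied more than the SCI libraries, and 2 of them stood apart in opposite directions. The median standard deviation of log2 CPM (normalised read counts, scaled to the library total) over genes was 0.166 in sham, 0.0915 in SCI and 0.0807 in naive. The 16 pan-neuronal genes, such as the neurofilaments and the transcription factor Isl1, summed to 46060, 35850 and 31260 CPM in sham 1 to 3 and to 35170, 35580 and 35290 CPM in SCI 1 to 3. The 26 macrophage genes ran the other way, with 596, 796 and 934 CPM in sham and 777, 736 and 790 CPM in SCI. Sham 1 was thus the library highest in neuronal RNA and sham 3 the lowest, and the SCI libraries lay between them. In whole ganglia, fewer cells of a type and less RNA per cell cannot be told apart. Library totals ran from 16724878 counts in sham 2 to 32060538 in SCI 1.

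**Figure D1:**
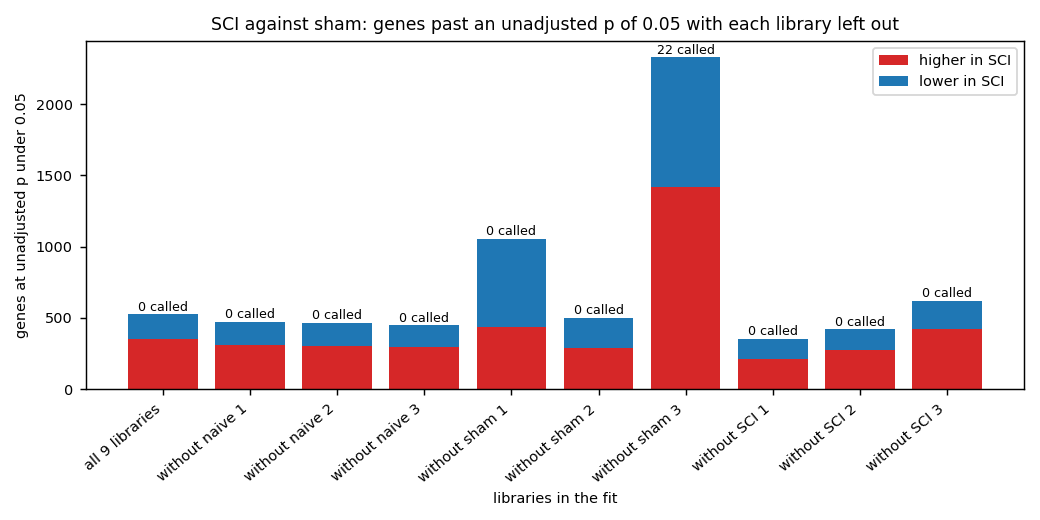
Number of genes at an unadjusted p under 0.05 in edgeR (vertical axis, stacked by direction) with all 9 libraries and with each library left out (horizontal axis), and above each bar the number called at an adjusted p under 0.05. Without sham 3 the number was 2329 with 22 called, without sham 1 it was 1057 with 0 called, and with all 9 libraries 526 with 0 called.

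Leaving out sham 3 gave 22 calls by edgeR, 19 higher and 3 lower, and leaving out any other library gave 0. Genes at an unadjusted p under 0.05 in edgeR then numbered 2329 without sham 3 and 1057 without sham 1, against 526 with all libraries. The 3 lower were Acta1, Myoz1 and Ass1, an enzyme of arginine synthesis, and the higher ones included Fos, Wsb1, Ccnl1, Pnisr and the clock gene Per2. Ass1, Ccnl1 and Pnisr are named because of that result. Per2 stood at 21.8, 24.5 and 37.1 CPM in sham 1 to 3 and at 33.9, 33.7 and 34.3 CPM in SCI, so that its groups overlapped only through sham 3. Nr1d1, a repressor of the clock, stood at 30.0, 29.6 and 81.0 CPM in sham and at 29.7, 37.3 and 34.3 CPM in SCI, and sham 3 was the highest of all 9 libraries. With sham 3 its log2 change was -0.48, and without sham 3 it was 0.17.

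Of the 15 genes lower in SCI with the smallest p and no overlap of libraries, 11 were in the lists of skeletal muscle genes, and the folds of SCI over sham ran from 0.361 to 0.717. They were Myoz1, Tnni2, Acta1, Tnnt3, Tnnc2, Ckm, Myl1, Atp2a1, Cox6a2, Mybpc1, Mb, Pemt, Nppc, Hfe2 and Adssl1. Of the 15 higher, none was a muscle gene, and the folds ran from 1.18 to 3.09. The 15 higher were Vip, Wsb1, Fos, Mlc1, Igf2, Fosb, Stac2, Fam46c, Tert, Sgk1, RT1-Bb, Hus1, Gca, Igfbp2 and Aox1.

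**Figure D2:**
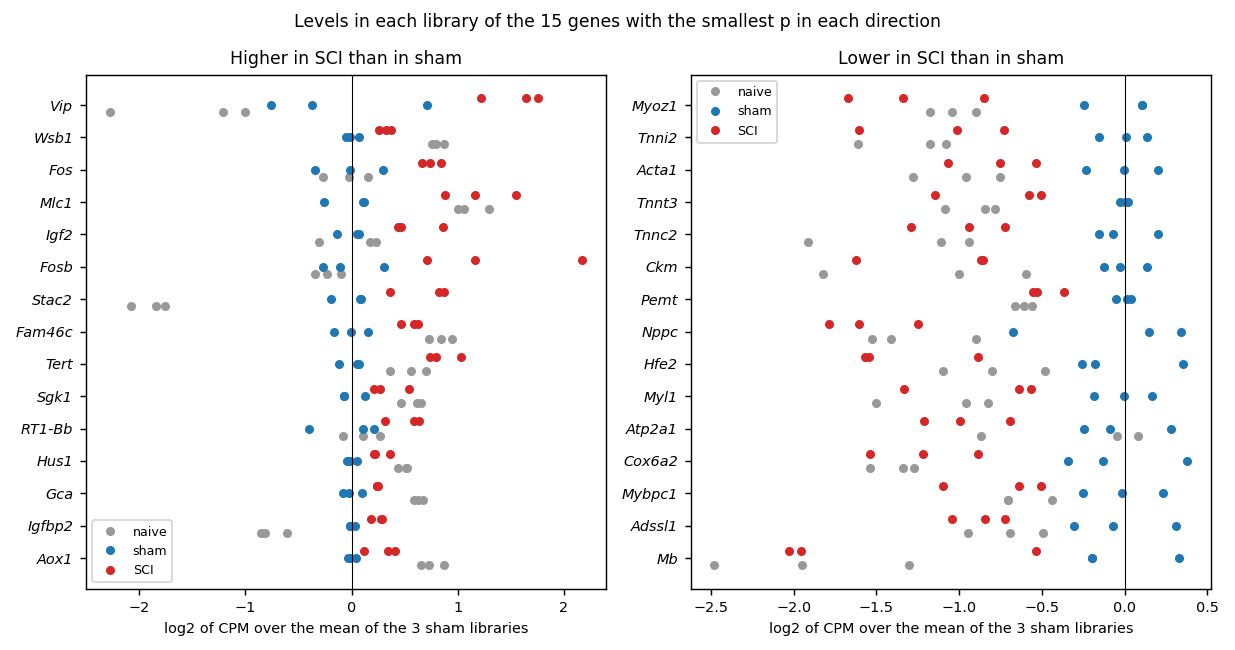
Level of the 15 genes higher and the 15 genes lower in SCI with the smallest p and no overlap (rows), as log2 of CPM over the mean of the sham libraries (horizontal axis), 1 point per library. All 3 naive libraries lay below all 3 sham libraries for 14 of the 15 lower genes, and the naive libraries had no common place among the 15 higher.

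To show what lies upstream of these genes, the promoters of 4 of the genes called by DESeq2 are printed, Vip and Wsb1 from the higher and Acta1 and Myoz1 from the lower. They are RefSeq promoters of rat assembly GRCr8, from 250 bases before the transcription start to 50 after it, written from 5′ to 3′ on the gene's strand. Vip lies at chr1:44470230-44470529 on the plus strand and Wsb1 at chr10:64716780-64717079 on the minus strand. Acta1 lies at chr19:68784145-68784444 on the minus strand and Myoz1 at chr15:3693363-3693662 on the plus strand. In Vip the capitals mark the core site of the cAMP response element (CRE) and 3 TATA boxes. In Wsb1 they mark a full CRE and a second core site downstream of the start. In Acta1 they mark an E-box, a serum response element (SRE) and a TATA box, and in Myoz1 an E-box and a MEF2 site.
Vip: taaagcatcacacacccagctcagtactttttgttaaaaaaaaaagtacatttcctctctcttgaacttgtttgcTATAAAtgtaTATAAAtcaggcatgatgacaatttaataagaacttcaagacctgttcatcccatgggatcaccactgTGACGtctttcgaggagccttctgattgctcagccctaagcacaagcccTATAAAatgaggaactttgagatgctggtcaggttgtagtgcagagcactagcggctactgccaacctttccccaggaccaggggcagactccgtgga
Wsb1: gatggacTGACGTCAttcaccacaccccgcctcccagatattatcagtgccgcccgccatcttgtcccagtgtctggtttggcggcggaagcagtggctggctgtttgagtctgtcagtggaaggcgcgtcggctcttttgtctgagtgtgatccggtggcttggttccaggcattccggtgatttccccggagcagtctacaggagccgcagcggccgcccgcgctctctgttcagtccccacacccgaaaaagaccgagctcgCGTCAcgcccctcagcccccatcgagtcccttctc
Acta1: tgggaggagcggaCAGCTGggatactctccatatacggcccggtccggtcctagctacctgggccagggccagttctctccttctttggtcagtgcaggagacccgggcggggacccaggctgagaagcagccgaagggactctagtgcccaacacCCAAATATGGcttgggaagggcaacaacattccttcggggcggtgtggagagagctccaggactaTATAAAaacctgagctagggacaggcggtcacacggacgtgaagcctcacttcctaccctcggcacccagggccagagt
Myoz1: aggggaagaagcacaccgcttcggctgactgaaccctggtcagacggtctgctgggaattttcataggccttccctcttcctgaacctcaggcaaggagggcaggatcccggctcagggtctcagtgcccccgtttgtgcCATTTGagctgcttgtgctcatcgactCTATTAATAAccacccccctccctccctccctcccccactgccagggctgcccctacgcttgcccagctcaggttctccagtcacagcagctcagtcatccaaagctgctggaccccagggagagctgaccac

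The motifs were searched on both strands as TGACGTCA for the CRE, TGACG for its core site, CANNTG for the E-box and TATAAA for the TATA box, and SRE and MEF2 by their usual consensus. Each full CRE also holds the core site on both strands. Positions count from the transcription start. The core site of Vip lies at -97 to -93 and the nearest TATA box at -48 to -43, and the full CRE of Wsb1 lies at -243 to -236. The SRE of Acta1 lies at -94 to -85 with its TATA box at -29 to -24, and the MEF2 site of Myoz1 at -83 to -74 with an E-box at -110 to -105. Of 33465 promoters, 1.83% held a full CRE, 21.2% a core site, 1.64% an SRE, 3.29% a MEF2 site, 14.2% a TATA box and 72.1% an E-box. Of the 22 promoters of immediate early genes, 14 held a CRE core site (63.6%) and 5 an SRE (22.7%). Of the 11 promoters of fast sarcomere genes, 8 held an E-box (72.7%), 4 a TATA box (36.4%) and 2 a MEF2 site (18.2%). Of the 12 promoters found for the 15 higher genes, 4 held a core site (33.3%), 1 a full CRE and 1 an SRE. Of these 12, 5 held an E-box (41.7%) and 3 a TATA box (25%). Of the 12 found for the 15 lower genes, 11 held an E-box (91.7%), 6 a TATA box (50%), 2 a MEF2 site (16.7%) and 1 an SRE. The promoter of Tnni2, also called by DESeq2, held no MEF2 site. A match is a stretch of letters and no evidence that a factor binds there.

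Genes of peripheral axon injury come first, because the study's title sets cord injury beside peripheral models of neuropathic pain. VIP is a vasoactive peptide that sensory neurons make after a nerve is cut. Vip stood at 0.845, 1.78 and 0.645 CPM in sham and at 3.68, 3.41 and 2.55 CPM in SCI. Every SCI library was above every sham library, and the naive libraries were below all 6 at 0.543, 0.472 and 0.225 CPM. The log2 change was 1.63 (SE 0.31), with an adjusted p of 0.442 in edgeR and 0.0370 in DESeq2. At about 1 CPM in sham, the value rests on few reads.

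The Reg3 genes encode secreted lectins that injured neurons and epithelia release. Reg3b stood at 1.21, 0.655 and 0.843 CPM in sham and at 1.24, 1.98 and 8.69 CPM in SCI. Reg3a stood at 1.06, 0.595 and 0.893 CPM in sham and at 1.11, 2.17 and 6.14 CPM in SCI. Both were high in SCI 3 and close to the sham libraries in SCI 1, and their adjusted p in edgeR was close to 1. The log2 change of Reg3b was 2.03 with all libraries, and over all settings tried it ran from 0.73 to 2.51.

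The classical injury markers gave smaller differences. Atf3 stood at 14.7, 18.9 and 22.4 CPM in sham and at 22, 21.7 and 20.5 CPM in SCI, and sham 3 was the highest of all 6. Its log2 change was 0.21 (SE 0.12). Gal, the galanin gene, stood at 9.07, 10.8 and 8.09 CPM in sham and at 11.2, 12.2 and 9.69 CPM in SCI, with overlap and a log2 change of 0.25 (SE 0.13). Gap43, a protein of growing axon tips, stood at 408, 382 and 362 CPM in sham and at 360, 379 and 380 CPM in SCI, with a log2 change of -0.04 (SE 0.07). Jun, which pairs with ATF3, stood at 116 to 120 CPM in sham and 122 to 129 CPM in SCI, without overlap, a log2 change of 0.09 (SE 0.06). Npy was listed at 0 counts in all 9 libraries, and Sprr1a had at most 6 counts in any library, so neither was tested. Of the 37 matched ribosomal protein genes, 4 also had 0 counts in all 9 libraries. A listed 0 alone therefore does not show that Npy was silent.

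Of the 25 tested genes of the axon injury list, 20 were higher in SCI, against 49.7% of all genes tested. At an unadjusted p under 0.05 in edgeR, 4 were higher (2.13% of all genes tested), Vip, Reg3a, Reg3b and Stmn4, and 0 were lower. Stmn4, a stathmin of growing axons, was singled out after its values were seen. Stmn4 stood at 31.3, 29.9 and 26.6 CPM in sham and at 33.5, 31.6 and 35.2 CPM in SCI. The list's median log2 change was 0.16, against 0.00 over all genes tested, and it stayed positive in all 19 settings (0.09 to 0.20).

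Immediate early genes encode transcription factors and RNA-binding proteins that cells transcribe within minutes of a stimulus. Fos stood at 5.55, 6.96 and 8.63 CPM in sham and at 11.2, 11.8 and 12.6 CPM in SCI. All 3 SCI libraries were above all 3 sham and all 3 naive libraries (5.86 to 7.84 CPM). The log2 change was 0.76 (SE 0.15), with an adjusted p of 0.495 in edgeR and 0.0274 in DESeq2. Without sham 3 the adjusted p of Fos in edgeR was 0.0385.

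Fosb, its paralog in the AP-1 complex, stood at 1.06, 1.19 and 1.59 CPM in sham and at 2.10, 2.87 and 5.78 CPM in SCI, again without overlap. Its log2 change was 1.46 (SE 0.34), and SCI 3 was the highest library. Zfp36 encodes a protein that binds and destabilises cytokine mRNA. Zfp36 stood at 17.9, 21.1 and 25.2 CPM in sham and at 26.4, 25.5 and 33.1 CPM in SCI, without overlap. Egr2 stood at 20.9 to 26.4 CPM in sham and 25.2 to 31.4 CPM in SCI, and Egr1, singled out after its values were seen, at 18.9 to 27.1 CPM and 25.5 to 32.4 CPM, both with overlap. Of the 31 immediate early genes tested, 22 were higher in SCI, and these 5 passed an unadjusted p of 0.05 in edgeR (2.13% of all genes tested) while 0 were lower at that p. The list's median log2 change was 0.15 and ran from 0.08 to 0.19 over the 19 settings.

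Glucocorticoid-induced genes were a list of their own. Sgk1, a kinase that glucocorticoids and osmotic stress induce, stood at 37.1, 42.5 and 37.1 CPM in sham and at 46.8, 45.1 and 56.8 CPM in SCI, without overlap. Its log2 change was 0.35 (SE 0.09), and the naive libraries stood at 53.6 to 61.1 CPM, above all sham libraries. Ddit4, an inhibitor of mTORC1, stood at 127 to 163 CPM in sham and 171 to 192 CPM in SCI. Nfkbia, the inhibitor of NF-kappa-B, stood at 26.3 to 32.7 CPM in sham and 32.3 to 44.6 CPM in SCI, with overlap. Of 15 tested members 11 were higher, and the median log2 change was 0.07, which was 0.02 without SCI 3 and 0.15 without sham 3.

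The list of splicing kinases and their partners holds mainly nuclear proteins of RNA processing. Wsb1, a subunit of a ubiquitin ligase whose transcript is alternatively spliced, stood at 48.3, 47.1 and 51.1 CPM in sham and at 63.2, 61.1 and 58.6 CPM in SCI. The groups did not overlap, and the naive libraries stood higher than both, at 89.2, 82.6 and 84.9 CPM. The log2 change was 0.32 (SE 0.06), with an adjusted p of 0.442 in edgeR and 0.0386 in DESeq2. Srsf5, a splicing factor of the SR family, stood at 139, 127 and 145 CPM in sham and at 160, 156 and 149 CPM in SCI. Rsrp1, an arginine- and serine-rich nuclear protein, overlapped, with 146 to 186 CPM in sham and 177 to 208 CPM in SCI.

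Of 19 tested members of the splicing list 18 were higher in SCI, 7 at an unadjusted p under 0.05 in edgeR (2.13% of all genes tested), and 5 did not overlap (3.30% of all genes). The median log2 change was 0.10 and ran from 0.09 to 0.20 over the settings. The summed level was 1337, 1355 and 1528 CPM in sham and 1573, 1586 and 1499 CPM in SCI, and sham 3 stood above SCI 3. In the naive libraries it was 1666 to 1730 CPM, above all libraries of both operated groups.

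Skeletal muscle genes encode the contractile filaments, the calcium pump and the energy enzymes of muscle fibres, which are no part of a ganglion. Acta1, the actin of skeletal muscle, stood at 49.4, 56.9 and 42.0 CPM in sham and at 23.6, 29.3 and 34.2 CPM in SCI. The groups did not overlap, and the naive libraries stood with SCI, at 29.3, 25.4 and 20.4 CPM. The log2 change was -0.77 (SE 0.15), with an adjusted p of 0.442 in edgeR and 0.0137 in DESeq2. Without sham 3, the adjusted p of Acta1 in edgeR was 0.0385.

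The troponin complex switches contraction on when calcium binds to it. Its fast inhibitory subunit gene Tnni2 stood at 7.64, 6.25 and 6.99 CPM in sham and at 2.29, 4.20 and 3.46 CPM in SCI, a log2 change of -1.11 (SE 0.20). The tropomyosin-binding subunit gene Tnnt3 stood at 18.1, 18.7 and 18.4 CPM in sham and at 8.32, 12.3 and 13.0 CPM in SCI, a log2 change of -0.73 (SE 0.14). The calcium-binding subunit gene Tnnc2 stood at 11.5, 9.58 and 9.03 CPM in sham and at 4.11, 6.08 and 5.23 CPM in SCI, a log2 change of -0.99 (SE 0.21). In all 3 the groups did not overlap, and the adjusted p in DESeq2 was 0.0137, 0.0196 and 0.0386 in the order given. Myoz1, a protein of the Z-disc, stood at 2.98, 2.98 and 2.33 CPM in sham and at 0.866, 1.53 and 1.09 CPM in SCI. Its log2 change was -1.29 (SE 0.22), and DESeq2 gave an adjusted p of 0.0274.

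Of the 14 tested genes of the fast sarcomere 0 were higher in SCI, 10 were lower at an unadjusted p under 0.05 in edgeR (1.03% of all genes tested), and 10, not all of them the same, did not overlap (3.11%). The median log2 change was -0.70, and it ran from -0.92 to -0.55 over the 19 settings. The summed level was 479, 482 and 429 CPM in sham, 372, 394 and 417 CPM in SCI and 381, 368 and 338 CPM in naive. Of that sum 70.8% came from Tpm1, a tropomyosin that other cells also make. Tpm1, named for that share, stood at 319, 320 and 286 CPM in sham and at 295, 294 and 307 CPM in SCI, with a log2 change of -0.05 (SE 0.07). None of the 14 was at 0 counts in all 9 libraries.

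Enzymes and transporters of muscle fibres were listed apart. Ckm, the muscle creatine kinase, stood at 12.1, 13.5 and 11.3 CPM in sham and at 3.99, 6.72 and 6.78 CPM in SCI, a log2 change of -1.10 (SE 0.25). Mb, the oxygen store myoglobin, stood at 6.17, 8.87 and 6.15 CPM in sham and at 1.82, 1.73 and 4.87 CPM in SCI, a log2 change of -1.34 (SE 0.34). Atp2a1, the calcium pump of the sarcoplasmic reticulum, stood at 6.36, 4.40 and 4.91 CPM in sham and at 2.26, 2.62 and 3.23 CPM in SCI. The SCI libraries lay below the sham libraries in all 3 genes, and the naive libraries of Atp2a1, at 5.54, 5.07 and 2.86 CPM, overlapped with sham. Of the 29 tested members of this list 25 were lower in SCI, 12 at an unadjusted p under 0.05 in edgeR (1.03% of all genes tested), and 15 did not overlap (3.11% of all genes). The summed level was 131, 140 and 142 CPM in sham, 101, 111 and 114 CPM in SCI and 107, 104 and 94.6 CPM in naive, and sham 1 to 3 were above all 6 other libraries.

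The slow sarcomere list was less uniform. Tnni1, the slow troponin inhibitory subunit, stood at 0.882, 2.08 and 1.89 CPM in sham and at 0.680, 0.544 and 0.637 CPM in SCI. Myh6, a myosin heavy chain and the 1 member higher in SCI, stood at 16.1, 16.4 and 30.8 CPM in sham and at 29.5, 30.3 and 24.7 CPM in SCI, and sham 3 was the highest. Myh6 was named after its values were seen, and reads of the near-identical Myh7 may be counted with it. The list's median log2 change was -0.52 and ran from -0.76 to -0.02. Its summed level overlapped between the groups at 183 to 203 CPM in sham and 191 to 203 CPM in SCI. Of that sum 75.3% came from Tpm3, named for that share. The source of the muscle transcripts was not tested.

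Sensory neuron genes depended on which sham library was in the fit. Of the 16 pan-neuronal genes 1 was higher in SCI, none passed an unadjusted p of 0.05 in edgeR, and the median log2 change was -0.07. Without sham 1 the median was 0.07 with 13 of 16 higher, and without sham 3 it was -0.19 with 0 of 16 higher. Over all 48 lists, 31 had medians of opposite sign between leaving out sham 1 and leaving out sham 3. The 14 lists whose median kept its sign in all 19 settings were 7 positive and 7 negative.

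**Figure D3:**
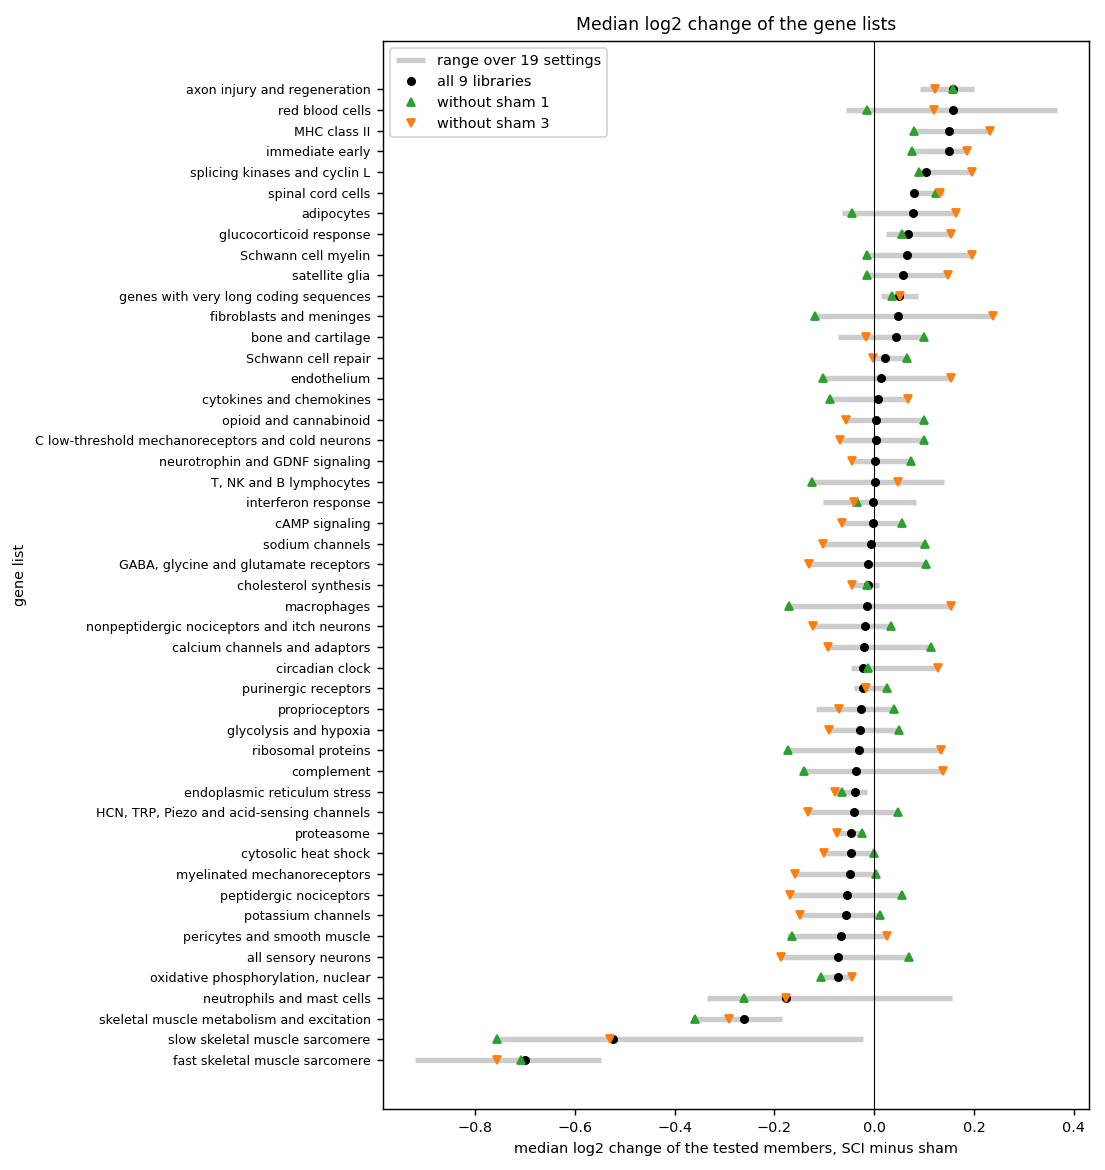
Median log2 change of the tested members of 48 gene lists, SCI minus sham (horizontal axis), with the range over 19 settings (grey bars) and the values without sham 1 and without sham 3 (triangles). The 3 muscle lists lie lowest, at -0.70, -0.52 and -0.26, and most neuronal and immune lists cross 0.

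Pain genes of the ganglion showed small differences. Scn9a, Scn10a and Scn11a encode sodium channels of nociceptors, Trpv1 and Trpa1 channels for heat and irritants, and Piezo2 the touch channel. P2rx3 encodes an ATP receptor, Cacna2d1 the gabapentin target and Oprm1 the mu opioid receptor. Calca and Tac1 encode the peptides CGRP and substance P. Trpv1 stood at 194, 182 and 143 CPM in sham and at 154, 171 and 178 CPM in SCI, and Calca at 1306, 1313 and 1113 CPM and at 1040, 1148 and 1240 CPM. Scn9a stood at 169, 150 and 117 CPM in sham and at 148, 137 and 140 CPM in SCI, inside the range of sham.

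The log2 changes of the 11 genes ran from -0.14 for Tac1 to 0.12 for Trpa1, 4 of them above 0, and all 11 of the 95% intervals held 0. With Oprm1 left aside, whose level of 2.93 to 4.98 CPM gives a wide interval, the bounds ran from -0.34 to 0.42, which are folds of 0.792 to 1.34. These bounds too take their spread from all 9 libraries. The estimates moved with the sham libraries: the log2 change of Trpa1 was 0.23 without sham 1 and -0.03 without sham 3, that of Cacna2d1 0.26 and -0.09, that of Scn9a 0.08 and -0.18, and that of Trpv1 0.04 and -0.17.

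**Figure D4:**
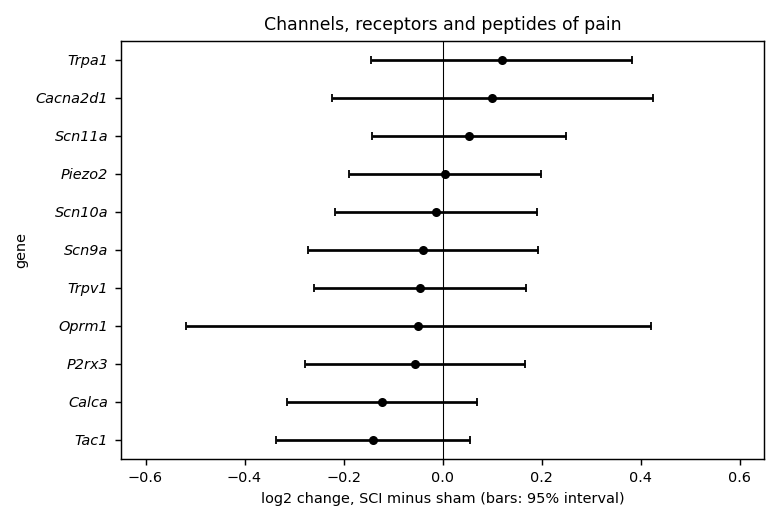
Log2 change of 11 channels, receptors and peptides known in pain, SCI minus sham (horizontal axis), as the estimate (points) and its 95% interval (bars). All 11 intervals hold 0, and the estimates run from -0.14 to 0.12.

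Among the nociceptor and itch genes, Mrgprd, a receptor of nonpeptidergic nociceptors, stood at 26.9, 23.0 and 18.6 CPM in sham and at 17.2, 18.8 and 19.5 CPM in SCI. Its log2 change was -0.31 (SE 0.13), and -0.17 without sham 1. Nppb, the itch peptide BNP, stood at 0.992, 0.774 and 0.546 CPM in sham and at 1.11, 1.33 and 1.86 CPM in SCI, without overlap and at few reads. Nmb stood at 83.0, 87.7 and 74.5 CPM in sham and at 72.9, 73.0 and 71.4 CPM in SCI, without overlap. Of the 22 tested members of this list 7 were higher and 15 lower. At an unadjusted p under 0.05 in edgeR, 1 was higher (2.13% of all genes tested) and 2 were lower (1.03%). The list's median log2 change was -0.02, which was 0.03 without sham 1 and -0.12 without sham 3. Stac2, an adaptor of voltage-gated calcium channels, stood at 2.61, 3.15 and 3.17 CPM in sham and at 5.25, 5.44 and 3.82 CPM in SCI, without overlap. The naive libraries were far below both, at 0.832, 0.881 and 0.707 CPM. The log2 change of Stac2 between SCI and sham was 0.72 (SE 0.17), with an adjusted p of 0.972 in edgeR and close to 1 in DESeq2.

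Glial and immune genes mostly overlapped. Gfap, the filament of activated satellite glia, stood at 22, 26.2 and 34.1 CPM in sham and at 37.7, 37.8 and 30.8 CPM in SCI. Ptgds, a prostaglandin synthase of satellite glia and meninges, stood at 1006, 1294 and 1608 CPM in sham and at 1720, 1561 and 1814 CPM in SCI, and sham 3 exceeded SCI 2. Of 21 tested satellite glia genes 16 were higher, 2 at an unadjusted p under 0.05 in edgeR (2.13% of all genes tested). Their median log2 change was 0.06, which was -0.02 without sham 1 with 9 of 21 higher, and 0.15 without sham 3. Their summed level had a mean of 15620 CPM in sham and 15740 CPM in SCI. Schwann cell myelin genes had a median log2 change of 0.07 with all libraries, -0.01 without sham 1 and 0.20 without sham 3. Macrophage genes had -0.02, -0.17 and 0.15 in the same order, and 0 of 26 passed an unadjusted p of 0.05 in edgeR.

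MHC class II molecules present peptides to helper T cells. RT1-Bb, the beta chain of a rat class II molecule, stood at 19.6, 13.8 and 21.1 CPM in sham and at 27.3, 22.6 and 28.2 CPM in SCI, without overlap. Its alpha chain RT1-Ba stood at 13.1, 10.8 and 14 CPM in sham and at 17.1, 13.9 and 18.2 CPM in SCI, with SCI 2 below sham 3. Of 13 tested members 10 were higher, 2 at an unadjusted p under 0.05 in edgeR (2.13% of all genes tested), and the median log2 change was 0.15 (0.08 to 0.23 over the settings). The list's summed level overlapped, with 455 to 558 CPM in sham and 518 to 582 CPM in SCI. Of that sum 57.5% came from Cd74, the invariant chain, named for that share.

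**Figure D5:**
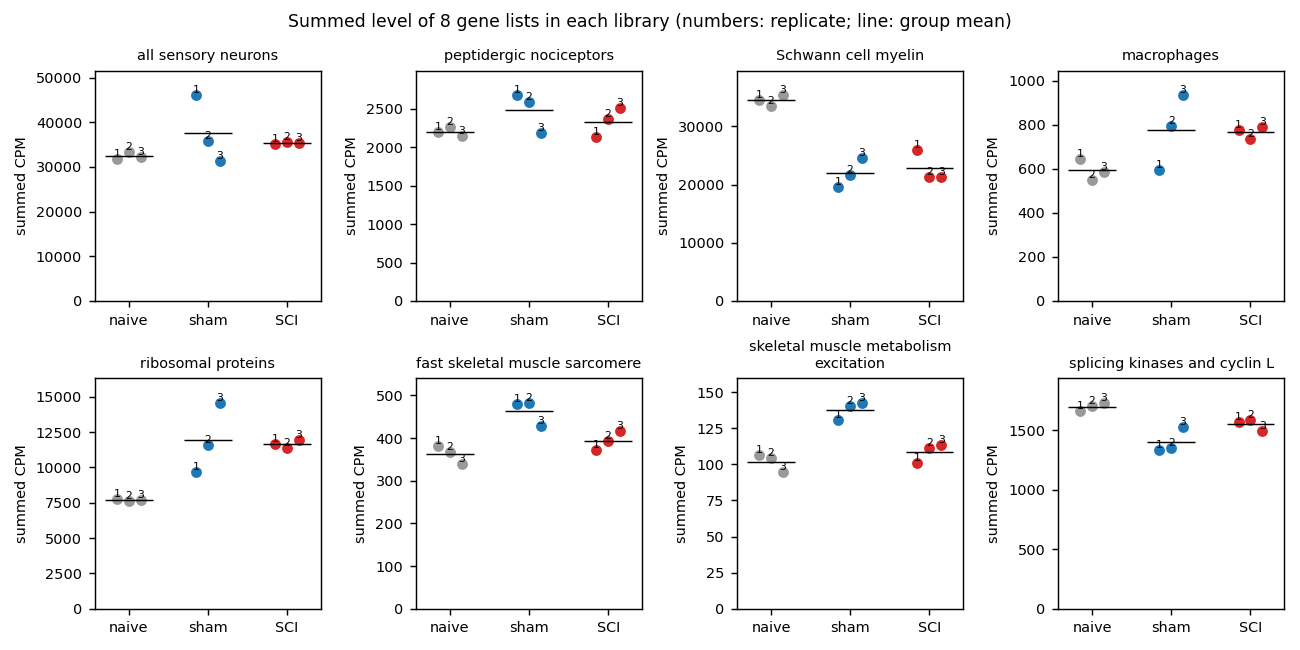
Summed CPM of the matched members of 8 gene lists (vertical axes from 0) in each library by group (horizontal axis), with the replicate number at each point and the group mean as a line. The 2 muscle lists separate sham from SCI and naive, and neuronal and ribosomal lists spread widely across sham 1 to 3.

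Igf2, a growth factor of meninges and vessels, stood at 53.0, 61.4 and 60.6 CPM in sham and at 80.5, 78.8 and 106 CPM in SCI, without overlap, a log2 change of 0.60 (SE 0.14). Igfbp2, which binds it, stood at 63.7, 66.1 and 63.8 CPM in sham and at 73.5, 78.0 and 78.7 CPM in SCI. Its naive libraries stood lower, at 35.8 to 42.3 CPM. Aqp4, the water channel of astrocytes, stood at 0.735, 0.774 and 0.893 CPM in sham and at 0.371, 2.92 and 2.96 CPM in SCI, where SCI 1 was the lowest of all 6. Of the 13 tested genes of spinal cord cells 11 were higher in SCI and 3 of them passed an unadjusted p of 0.05 in edgeR (2.13% of all genes tested), Aqp4, Gad1 and Gjb6. Their list summed to 104 to 120 CPM in sham, 113 to 125 CPM in SCI and 143 to 160 CPM in naive. Of that sum 41.6% came from Pdgfra, named for that share, which is also in the list of fibroblasts and meninges. None of the 20 members of the spinal cord list was at 0 in all 9 libraries.

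Of 42 nuclear genes of oxidative phosphorylation 41 were lower in SCI, 0 passed an unadjusted p of 0.05 in edgeR, and the median log2 change was -0.07. Their summed level was 10700, 10720 and 11110 CPM in sham and 9943, 10270 and 10580 CPM in SCI, without overlap, and 8047 to 8264 CPM in naive. Proteasome genes had 29 of 31 lower with a median of -0.05, and genes of endoplasmic reticulum stress 19 of 21 lower with a median of -0.04. Ddit3, the stress factor CHOP, stood at 40.2, 46.8 and 45.4 CPM in sham and at 38.2, 39.99 and 38.2 CPM in SCI, without overlap. Ribosomal protein genes had a median of -0.03, which was -0.17 without sham 1 and 0.13 without sham 3. Over all 48 lists, 72 of 970 tested genes passed an unadjusted p of 0.05 in edgeR (7.42%), 37 higher and 35 lower, against 3.16% of all genes tested. The lists were chosen with results of these libraries known, so this share is no independent support.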

How the data were processed

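RNA of 9 libraries was analysed, 3 each from naive, sham-operated and SCI rats. The kit was TruSeq RNA Sample Prep V2, per the labels' protocols; it does not keep strand, so a gene and an overlapping antisense gene share their reads. The submitters' processing notes name TopHat2, HTSeq, FastQC, Trimmomatic and DESeq2, without order. The authors deposited raw whole-number counts per gene. For tool versions and genome build, the answer is not given in the sources used here.

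Groups came from the treatment labels. edgeR 4.0.16 (R 4.3.3) fitted all 9 libraries with TMM scaling, the default filter by group and 1 mean per group (6 residual degrees of freedom). p-values were Benjamini-Hochberg adjusted over all genes tested, and calls were made at an adjusted p under 0.05. CPM were computed from TMM-scaled totals. A standard error is the absolute log2 change before edgeR's shrinkage, over the square root of F. The log2 changes printed are those after it. A library of 16724878 counts puts a gene at 1 CPM at few reads, where counting error adds to the spread. The test was checked on counts simulated with the same spread in all groups. In the data sham varied more than SCI and naive, and the check does not cover that. DESeq2 1.42.0, limma-voom (limma 3.58.1), other scalings and filters, a replicate block and leaving out each library were the alternatives.

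Named genes are the 15 genes with the smallest p in each direction whose libraries do not overlap, the genes DESeq2 called, up to 3 members per list by p, 11 pain genes and 6 genes of axon injury. 1 further gene of the rule is not reported here. Unnamed loci were skipped, and genes outside the rule are marked. The comparison, the gene lists and this rule were chosen with earlier results of these data known. Of 1084 listed symbols 1042 matched (13 through synonyms in a RefSeq table of GRCr8, used for names), giving 970 tested genes in 48 lists. Lists are described without a test. A list of genes of the mitochondrial genome was not analysed here. Promoters matched 24 of the 30 genes with the smallest p.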

Additional observations from a re-analysis of the deposited data

How the results depend on the processing

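edgeR called 0 genes with all libraries and also under RLE and upper-quartile scaling, a stricter filter and a robust spread. It also called 0 in a fit of only the SCI and sham libraries and at an adjusted p under 0.1. limma-voom called 0 as well. edgeR called 11 genes with no low-count filter, 4 higher and 7 lower, and DESeq2 called 8. The cause was not tested. With 1 library left out the number of calls ran from 0 to 22, and the number at an unadjusted p under 0.05 from 352 to 2329, against 526 with all. The fit of only the SCI and sham libraries, which has fewer libraries, gave 330 at that p. Same-numbered SCI and sham libraries did not deviate together (r of -0.0681, -0.0946 and -0.0477), and unlike-numbered ones had r of -0.0356 to 0.1062. The labels used here do not say whether the numbers pair libraries, and these values cannot settle it. A replicate block gave 0 calls and 488 genes at an unadjusted p under 0.05 in edgeR. Of 172 named genes, 149 kept their sign in each of the up to 18 alternatives that tested them and 23 changed it in at least 1. Of 48 list medians, 34 changed sign in at least 1, 5 of them under another scaling. Genes near 1 CPM rest on few reads.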

Other observations

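Some genes outside the muscle lists are given with their naive levels. Pemt, a methyltransferase of phosphatidylcholine synthesis and not a muscle marker, stood at 7.16, 7.50 and 7.64 CPM in sham, 5.07, 5.14 and 5.78 CPM in SCI and 4.71, 5.04 and 4.88 CPM in naive, so that sham stood above both. Nppc, the natriuretic peptide CNP, had the same order at 0.588, 1.19 and 1.04 CPM in sham, 0.309, 0.396 and 0.273 CPM in SCI and 0.326, 0.504 and 0.353 CPM in naive. Pi16, a fibroblast gene, stood at 45.0, 45.4 and 63.5 CPM in sham and at 37.5, 34.4 and 31.5 CPM in SCI, and in naive at 79.0, 50.9 and 60.3 CPM, so that SCI stood below both. Mlc1, a membrane protein of astrocytes, stood at 0.698, 0.536 and 0.695 CPM in sham, 1.89, 1.43 and 1.18 CPM in SCI and 1.34, 1.29 and 1.57 CPM in naive.

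Several genes higher in SCI were higher still in naive ganglia. Naive libraries also stood apart from both operated groups in whole lists, so a naive level need not be particular to a gene. The list of very long coding sequences summed to 10800 to 11420 CPM in naive, against 5227 to 5884 CPM in sham and SCI. Ribosomal protein genes summed to 7640 to 7781 CPM in naive, against 9668 to 14550 CPM in sham and SCI. The cause was not tested. Gca, the calcium-binding protein grancalcin, stood at 30.1, 27.7 and 26.5 CPM in sham, 33.2, 33.2 and 33.4 CPM in SCI and 44.8, 42.1 and 43.2 CPM in naive. Hus1, of the DNA damage checkpoint clamp, stood at 19.6, 19.3 and 20.5 CPM in sham, 23.1, 25.5 and 23.0 CPM in SCI and 26.8, 28.2 and 28.5 CPM in naive. Aox1, an aldehyde oxidase, stood at 30.3, 29.8 and 31.4 CPM in sham, 40.6, 38.8 and 33.1 CPM in SCI and 48.2, 50.7 and 55.9 CPM in naive. Of the 15 higher genes, all 3 naive libraries lay above all 3 SCI libraries in 5 and below all 3 sham libraries in 3.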
